A study of Mus musculus with 2 samples.

Results

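The mitochondrial carriers of the SLC25 family were compared between mouse heart and mouse embryonic fibroblasts (MEF), which are connective-tissue cells grown from embryos. The members were the probes whose platform gene symbol begins with Slc25a and a digit, averaged per gene and array. This gave 45 genes, read by 75 probes, of 19532 genes measured. No filter on low values was applied, so all 45 were tested.

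The series held 2 two-colour Agilent arrays, each hybridised with RNA of a mouse heart (heart-1 or heart-2, labelled with Cy3) and RNA of MEF (labelled with Cy5). The hearts were untreated and taken without culture, whereas the MEF were maintained in DMEM with fetal bovine serum; strain, age and genotype are not given in the labels. Tissue of origin, embryonic age and growth in culture therefore cannot be told apart in any ratio below. Whether separate animals gave the hearts, or a single preparation the MEF RNA, is not stated, so p-values cover only the spread between the arrays, possibly a technical one. The dyes were not exchanged, so a dye bias of a probe stays in its ratio. A ratio from whole tissue also cannot tell more cells of a type from more RNA per cell.

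Each value is a log2 ratio, read as heart over MEF. The deposited table states neither the log base nor the direction; the direction is likely rather than stated, and was taken from 15 cardiomyocyte markers, all of which were positive, with medians of 6.498 (heart-1) and 6.54 (heart-2). Their sign is therefore not a result. Feature Extraction's own ratio, red over green, would carry the opposite sign. With the direction so set, 10 of 12 fibroblast markers were lower in heart and 7 of 7 endothelial markers were higher. Of 6 macrophage markers, 5 were lower in heart and 1 did not pass, with a median of -1.75. The position of the zero is not known either. The array medians over all probes were 0.07 and -0.14, and a narrow range held far more probes than its surroundings on both arrays, between 0.12 and 0.20 on heart-1 (5014 probes) and between -0.22 and -0.10 on heart-2 (5937 probes). Signal over background could not be judged from ratios, and the number of arrays limits the precision.

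SLC25 proteins are small membrane proteins built from repeats of a common fold. Most sit in the inner mitochondrial membrane, which is otherwise closed to charged metabolites, and exchange a solute of the matrix for one of the intermembrane space. In heart muscle, which draws most of its ATP from oxidation of fatty acids, they export ATP, import ADP, phosphate and acylcarnitine, and carry the reducing equivalents of cytosolic NADH through the malate-aspartate shuttle. Other members move citrate outward for lipid synthesis, or bring cofactors, iron, nucleotides and amino acids into the matrix.

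Of the 45 SLC25 genes, 28 were higher in heart, 9 were lower and 8 did not pass the test, which was limma's moderated test of the mean ratio against 0 with Benjamini-Hochberg adjustment over all genes at 0.05. Over all genes 33.8% were called higher and 39.3% lower. These shares are the background for the counts of every group and list given here. Without variance shared across genes 10 members were called higher and 4 lower, and limma's treat against a 2-fold change called 9 higher and 5 lower. The median log2 ratio of the family was 0.49, against -0.04 over all genes. It was 0.50 on heart-1 and 0.53 on heart-2. Many calls were small: 18 of the 37 called members lay under a 2-fold change in their mean. At least 2-fold higher on both arrays were 13 members, beside 18.1% of all genes, and at least 2-fold lower on both were 5 members, beside 18.5% of all genes.

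**Figure D1:**
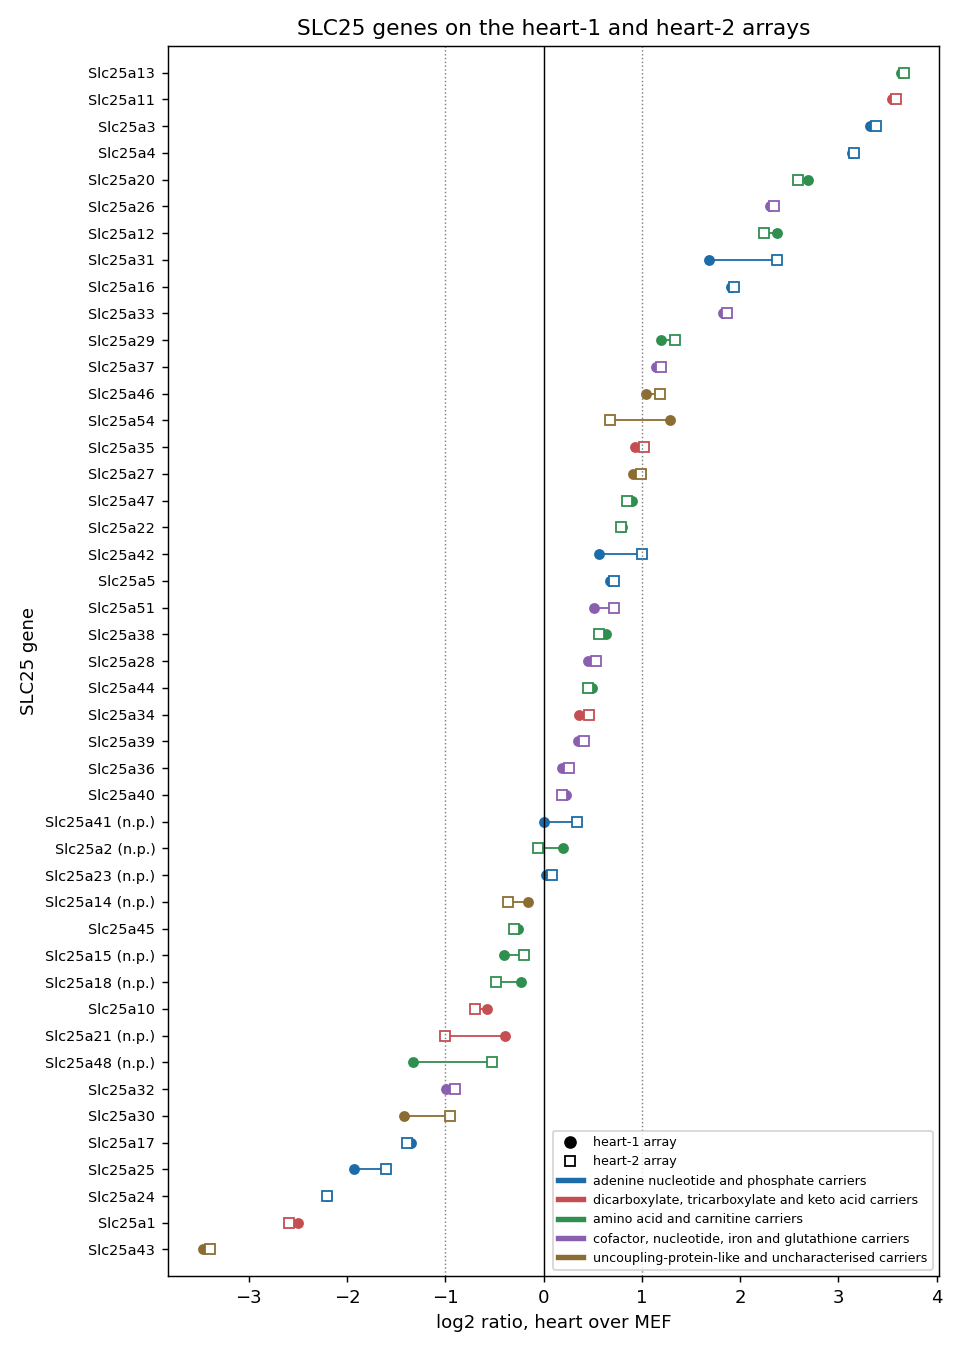
Log2 ratio of heart over MEF for each of the 45 SLC25 genes on the heart-1 array (filled circles) and the heart-2 array (open squares), ordered by their mean and coloured by group; n.p. marks genes that did not pass the test and dotted lines mark a 2-fold change. The means run from -3.43 for Slc25a43 to 3.65 for Slc25a13, and the arrays lie close together for most genes.

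The highest members handle the core traffic of oxidative metabolism. They were Slc25a13, Slc25a11, Slc25a3, Slc25a4 and Slc25a20, which move aspartate and glutamate, oxoglutarate and malate, phosphate, ADP and ATP, and acylcarnitine. Their mean log2 ratios ran from 2.64 to 3.65. The place of Slc25a3 among them depends on the probe summary: the median of its probes was 2.09, below Slc25a20 at 2.64, Slc25a26 at 2.32 and Slc25a12 at 2.25 summarised in the same way. Slc25a13 exceeded 96.7% of all genes on the array. The lowest were Slc25a43, Slc25a1, Slc25a24 and Slc25a25, from -3.43 to -1.77, and 2.19% of all genes lay below Slc25a43.

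The ADP/ATP carriers differed from each other in their ratios. Slc25a4, the carrier that predominates in heart and skeletal muscle, had log2 ratios of 3.14 on heart-1 and 3.16 on heart-2, a mean of 3.15 ± 0.02 (SD, n = 2) or 8.88-fold higher in heart (limma adjusted p = 0.00136). Slc25a5, the form that predominates in dividing cells, gave 0.68 and 0.71, a mean of 0.70 ± 0.03 (1.62-fold; limma adjusted p = 0.00408). Both genes were thus higher in heart on both arrays, and the difference between their log2 ratios was 2.46 and 2.45. With only 2 arrays an exact test over samples of such a difference cannot go below p = 0.5, so differences between members are given as values. RefSeq lists a pseudogene of Slc25a5, and whether its probe also reads other copies was not tested.

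Slc25a31, the ADP/ATP carrier of male germ cells, stood at 1.68 and 2.38, a mean of 2.03 ± 0.49 (limma adjusted p = 0.0149), and its arrays were farther apart than those of Slc25a4 or Slc25a5. Of 6 germ cell markers measured, 2 were higher in heart, 1 was lower and 3 did not pass, beside 33.8% higher and 39.3% lower over all genes. Tnp1 and Acr were higher at 0.71 ± 0.09 and 0.36 ± 0.01. Prm1 was lower at -0.74 ± 0.13, over probes from -2.82 to 1.61. Dazl, Ddx4 and Prm2 did not pass, at 0.00 ± 0.02, 0.81 ± 1.44 and -0.17 ± 0.04. The part of such cells in the Slc25a31 ratio was not tested.

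The promoters of Slc25a4 and Slc25a5 are shown because this pair holds the widest gap among the ADP/ATP carriers. Each runs from 250 bases before to 50 bases after the RefSeq transcription start in GRCm38.p6, 5′ to 3′ on the gene's strand. The first lies at chr8:46211013-46211312 on the minus strand and the other at chrX:36795347-36795646 on the plus strand. Capitals mark CCGGAAG, the core bound by ETS factors, which was found in the first at 130 bases before the start. None of the 7 motifs searched was in the window of Slc25a5.
Slc25a4: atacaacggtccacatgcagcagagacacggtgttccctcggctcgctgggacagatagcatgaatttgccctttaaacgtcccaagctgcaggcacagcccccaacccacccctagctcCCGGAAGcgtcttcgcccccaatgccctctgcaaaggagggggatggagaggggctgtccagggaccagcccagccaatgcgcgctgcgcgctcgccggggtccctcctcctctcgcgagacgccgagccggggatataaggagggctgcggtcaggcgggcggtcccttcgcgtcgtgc
Slc25a5: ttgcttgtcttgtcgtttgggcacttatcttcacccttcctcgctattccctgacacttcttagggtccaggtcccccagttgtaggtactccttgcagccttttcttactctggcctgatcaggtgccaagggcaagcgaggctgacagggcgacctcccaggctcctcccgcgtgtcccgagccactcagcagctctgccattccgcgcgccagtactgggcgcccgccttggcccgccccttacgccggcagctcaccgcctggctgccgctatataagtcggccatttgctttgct
The GC content was 65.7% in the window of Slc25a4 and 61.0% in that of Slc25a5.

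Slc25a3, which imports the phosphate that ATP synthase joins to ADP, was at 3.33 on heart-1 and 3.38 on heart-2, a mean of 3.36 ± 0.04 (10.2-fold higher; limma adjusted p = 0.00136). All 3 of its probes were positive, but they spread more widely than those of any other member. They gave mean log2 ratios of 1.61, 2.09 and 6.36, and the gene was still called higher as their median. The gene is known to make a heart and muscle form and a widely expressed form from alternative exons; no probe is assigned to an exon in the files.

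The window of Slc25a3, at chr10:91123918-91124217 on the minus strand, held both an NRF-1 match, found with GCGCANGCG on the opposite strand, and the ETS core. Both are in capitals. NRF-1 and ETS factors of the GABP type are known regulators of nuclear genes for mitochondria.
Slc25a3: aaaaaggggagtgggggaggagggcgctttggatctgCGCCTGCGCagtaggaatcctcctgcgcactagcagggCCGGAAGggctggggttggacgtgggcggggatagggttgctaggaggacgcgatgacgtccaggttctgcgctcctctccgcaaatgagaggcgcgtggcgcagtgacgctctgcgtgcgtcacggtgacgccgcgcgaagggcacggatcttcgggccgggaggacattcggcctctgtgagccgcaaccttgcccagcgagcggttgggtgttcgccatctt
The matches began 213 and 175 bases before the start and did not overlap.

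The ATP-Mg/phosphate carriers set the total adenine nucleotide content of the matrix and mostly respond to calcium. Of Slc25a23, Slc25a24, Slc25a25 and Slc25a41, 2 were lower in heart and 2 did not pass. Slc25a24 was lower in heart, at -2.20 on both arrays, a mean of -2.20 ± 0.00 (4.60-fold; limma adjusted p = 0.00137). Slc25a25 was also lower, at -1.93 and -1.61, a mean of -1.77 ± 0.23 (3.41-fold; limma adjusted p = 0.00557). Slc25a23 gave 0.03 and 0.09 and Slc25a41 gave 0.00 and 0.34, and neither passed. The log2 ratio of Slc25a23 lay above that of Slc25a24 by 2.23 on heart-1 and 2.29 on heart-2.

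Among carriers linked to coenzyme A, the directions were mixed. Slc25a16, linked to coenzyme A by its yeast counterpart, was higher at 1.91 and 1.94 (mean 1.93 ± 0.02, 3.80-fold; limma adjusted p = 0.00141). Slc25a42, which exchanges coenzyme A for adenine nucleotides, gave 0.56 and 1.00, a mean of 0.78 ± 0.31 that passed with an adjusted p of 0.0389 in the limma fit. Its probes were at 0.39, which did not pass singly, and 1.18. Slc25a17, a peroxisomal member that carries coenzyme A and flavin nucleotides, was lower at -1.35 and -1.39 (mean -1.37 ± 0.03, 2.58-fold; limma adjusted p = 0.00187). In all, 6 of the 11 adenine nucleotide and phosphate carriers were higher, 3 were lower and 2 did not pass.

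The carriers of di- and tricarboxylates held members from both ends of the family. Slc25a11, which exchanges oxoglutarate for malate in the malate-aspartate shuttle, was at 3.54 and 3.59, a mean of 3.57 ± 0.03 (11.8-fold higher; limma adjusted p = 0.00136). Slc25a1, which exports citrate to the cytosol, was at -2.50 and -2.59, a mean of -2.54 ± 0.07 (5.83-fold lower; limma adjusted p = 0.00141). The log2 ratios of these genes, each read by 1 probe, differed by 6.04 on heart-1 and 6.18 on heart-2. Slc25a10, which exchanges dicarboxylates for phosphate, lay between them at -0.57 and -0.70 (mean -0.64 ± 0.09; limma adjusted p = 0.0089).

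Acly, which cleaves the exported citrate into cytosolic acetyl-CoA, was 2.91-fold lower in heart (-1.54 ± 0.05), the same direction as Slc25a1. Mpc1, a subunit of the mitochondrial pyruvate carrier, which belongs to another family, was 14.5-fold higher (3.86 ± 0.01). Slc25a35 and Slc25a34, whose substrates are not established, were higher at 0.98 ± 0.06 and 0.41 ± 0.07. The call of Slc25a34, like those of Slc25a39 and Slc25a44 below, was lost with the zero set on the near-constant values, an alternative chosen after seeing the data. Slc25a21, the oxodicarboxylate carrier, gave -0.39 and -0.999 and did not pass, though it was called lower with centred arrays, with the zero so set or without near-constant probes. Of its 2 probes, 1 lay in the range of near-constant values on both arrays.

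Both aspartate-glutamate carriers, which drive the malate-aspartate shuttle and respond to calcium, were higher in heart. Slc25a13, also called citrin and best known from liver, was at 3.64 and 3.67, a mean of 3.65 ± 0.02 (12.6-fold; limma adjusted p = 0.00136). Slc25a12, also called aralar and the form usually assigned to heart, brain and skeletal muscle, was at 2.37 and 2.24, a mean of 2.31 ± 0.10 (4.95-fold; limma adjusted p = 0.0017). The log2 ratio of Slc25a13 was above that of Slc25a12 by 1.26 and 1.43, which compares changes and not levels. Slc25a13 was read by 1 probe, and the 3 probes of Slc25a12 ran from 1.89 to 2.81.

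The soluble enzymes of the shuttle were higher as well. The aspartate aminotransferases Got1 and Got2 reached 4.01 ± 0.01 and 2.34 ± 0.02, and the malate dehydrogenases Mdh1 and Mdh2 5.15 ± 0.06 and 2.17 ± 0.08. In the list of malate-aspartate and glycerol phosphate shuttle enzymes 6 of 7 were higher and 1 was lower. Gpd1, the cytosolic glycerol phosphate dehydrogenase, was at 3.29 ± 0.11 over probes at 1.30 and 5.29, and its mitochondrial partner Gpd2 was the lower one at -0.80 ± 0.03.

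The windows of Slc25a13 and Slc25a1 are shown because these genes stood near opposite ends of the family and both held CACGTG, the E-box read by several helix-loop-helix factors. They lie at chr6:6217124-6217423 and chr16:17928170-17928469, both on the minus strand of GRCm38.p6. The E-box, in capitals, began 125 bases before the start in the first and 239 bases before it in the other.
Slc25a13: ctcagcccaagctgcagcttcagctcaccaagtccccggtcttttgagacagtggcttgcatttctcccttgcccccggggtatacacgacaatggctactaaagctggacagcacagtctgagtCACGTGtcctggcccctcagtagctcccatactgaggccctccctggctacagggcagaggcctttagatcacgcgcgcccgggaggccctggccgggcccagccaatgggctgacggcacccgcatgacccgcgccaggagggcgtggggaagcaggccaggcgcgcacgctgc
Slc25a1: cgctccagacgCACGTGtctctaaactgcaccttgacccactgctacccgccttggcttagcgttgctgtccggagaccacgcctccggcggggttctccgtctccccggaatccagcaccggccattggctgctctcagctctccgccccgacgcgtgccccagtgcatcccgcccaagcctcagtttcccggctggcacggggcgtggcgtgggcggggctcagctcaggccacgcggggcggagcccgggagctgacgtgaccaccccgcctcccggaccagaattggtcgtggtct
No other motif of those searched was found in either window.

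Slc25a20, which carries acylcarnitine inward for oxidation of fatty acids, was at 2.69 on heart-1 and 2.58 on heart-2, a mean of 2.64 ± 0.07 (6.22-fold higher; limma adjusted p = 0.00141). The enzymes on either side of it split by isoform. Cpt1b, the muscle carnitine palmitoyltransferase of the outer membrane, was 34.3-fold higher, whereas its liver and brain counterparts Cpt1a and Cpt1c were 2.08-fold and 16.5-fold lower. Cpt2 and Crat, which transfer acyl groups on the matrix side, were 7.98-fold and 9.43-fold higher. Of the 6 carnitine shuttle genes 4 were higher and 2 were lower.

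The remaining amino acid carriers stayed within smaller ratios. Of the 13 carriers of amino acids and carnitine, 8 were higher, 1 was lower and 4 did not pass. Slc25a29, a carrier of basic amino acids, was at 1.20 and 1.34 (mean 1.27 ± 0.10). Slc25a22, a glutamate carrier, gave 0.79 on both arrays (1.73-fold higher), while its relative Slc25a18 gave -0.23 and -0.48 and did not pass. Slc25a47, known from liver, was higher at 0.88 ± 0.04. Slc25a44, a carrier of branched-chain amino acids, and Slc25a38, which supplies glycine for haem synthesis, were higher at 0.47 ± 0.03 and 0.60 ± 0.05.

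Slc25a45 was the member of this group called lower, at -0.28 ± 0.03 (limma adjusted p = 0.02), a call lost with centred arrays. The ornithine carriers Slc25a15 and Slc25a2 gave means of -0.30 ± 0.14 and 0.07 ± 0.18, and neither passed. Slc25a48 gave -1.32 on heart-1 and -0.52 on heart-2, the widest gap between the arrays in the family, and did not pass (-0.92 ± 0.57; limma adjusted p = 0.0821). It was called lower with centred arrays and with the zero set on the near-constant values. In these fits the adjusted p of the members followed the size of the mean ratio and not the gap between arrays.

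Of the 9 carriers of cofactors, nucleotides, iron and glutathione, 8 were higher in heart and 1 was lower. Slc25a26, which brings S-adenosylmethionine into the matrix, led at 2.30 and 2.34, a mean of 2.32 ± 0.03 (5.01-fold; limma adjusted p = 0.00137). Slc25a33, a pyrimidine nucleotide carrier, was at 1.82 and 1.87 (mean 1.85 ± 0.03, 3.59-fold; limma adjusted p = 0.00147). Its relative Slc25a36 had a mean of 0.22 ± 0.05 that covered probes at -1.05 and 1.497 and was a call lost with centred arrays. Slc25a51, which imports NAD, was at 0.62 ± 0.14 over probes at 0.42, which did not pass singly, and 0.81.

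The member that was lower in this group was Slc25a32, linked to folate and flavin import, at -0.99 and -0.91 (mean -0.95 ± 0.06, 1.93-fold; limma adjusted p = 0.00346). Of 5 measured enzymes of the mitochondrial folate pathway, which use its substrate, 4 were lower and 1 did not pass. Mthfd2 was at -4.47 ± 0.04, Mthfd1l at -3.69 ± 0.07, Aldh1l2 at -2.33 ± 0.12 and Shmt2 at -2.23 ± 0.03. The 3 probes of Aldh1l2 ran from -3.85 to 0.46 and so differed in sign. Mthfd2l did not pass, at -0.02 ± 0.03 over probes at -0.87 and 0.84; Aldh1l2 and Mthfd2l were named after their values were seen. The list that holds them, together with citrate and proline enzymes, had 5 of 16 genes higher, 8 lower and 3 not passing. Aldh18a1, the first enzyme of proline synthesis, was 19.6-fold lower. Me3, a mitochondrial malic enzyme, was higher at 1.56 ± 0.16 over 4 probes from 0.02 to 3.59. Oat, ornithine aminotransferase, was higher at 0.82 ± 0.02.

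Both mitoferrins, which import iron for haem and iron-sulphur clusters, were called higher. Slc25a37, the form of developing red cells, was at 1.14 and 1.19, a mean of 1.17 ± 0.04 (limma adjusted p = 0.00222) over 3 probes at -0.50, 0.22 and 3.78, and it did not pass as their median. Slc25a28, the widely expressed form, was at 0.46 and 0.53 (mean 0.49 ± 0.05). Slc25a39, a glutathione importer, was at 0.38 ± 0.05 over probes at 0.02, which did not pass singly, and 0.74. Its close relative Slc25a40 was at 0.21 ± 0.03 over probes from -0.20 to 0.80, a call lost with the probe median and with centred arrays.

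Of 5 erythroid markers measured, 4 were higher in heart. Klf1, a transcription factor of red cell precursors, did not pass at -0.40 ± 0.32. The medians of all 5 were 2.64 on heart-1 and 2.69 on heart-2. Alas2, the haem synthesis enzyme of red cells, was at 6.58 ± 0.08. The part of red cells in the ratios of Slc25a37 and Slc25a38 was not tested. Of 11 genes of mitochondrial iron, haem and iron-sulphur clusters 10 were higher and 1 did not pass, with Fech, which inserts iron into haem, at 2.97 and 3.03 and Alas1, the general counterpart of Alas2, 7.99-fold higher.

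The members that resemble uncoupling proteins, or that have no established substrate, went both ways. Slc25a43, whose substrate is not established, was the lowest of all, at -3.46 on heart-1 and -3.40 on heart-2, a mean of -3.43 ± 0.05 (10.8-fold lower; limma adjusted p = 0.00136). Its 2 probes gave -3.78 and -3.09. Slc25a30, known from kidney, was lower at -1.42 and -0.95 (mean -1.19 ± 0.33). Slc25a27, known from brain, was higher at 0.91 and 0.99 (mean 0.95 ± 0.06). Slc25a46, a protein of the outer membrane tied to mitochondrial fusion and fission, was higher at 1.05 and 1.18 (mean 1.11 ± 0.10).

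Slc25a54, which RefSeq names as like an ATP-Mg/phosphate carrier, gave 1.28 and 0.68 and passed (limma adjusted p = 0.0443), though not with a robust variance prior. Slc25a14, a brain carrier, did not pass at -0.26 ± 0.14, and 2 of its 3 probes lay in the range of near-constant values on both arrays. Among these 6 genes 3 were higher, 2 were lower and 1 did not pass.

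**Figure D2:**
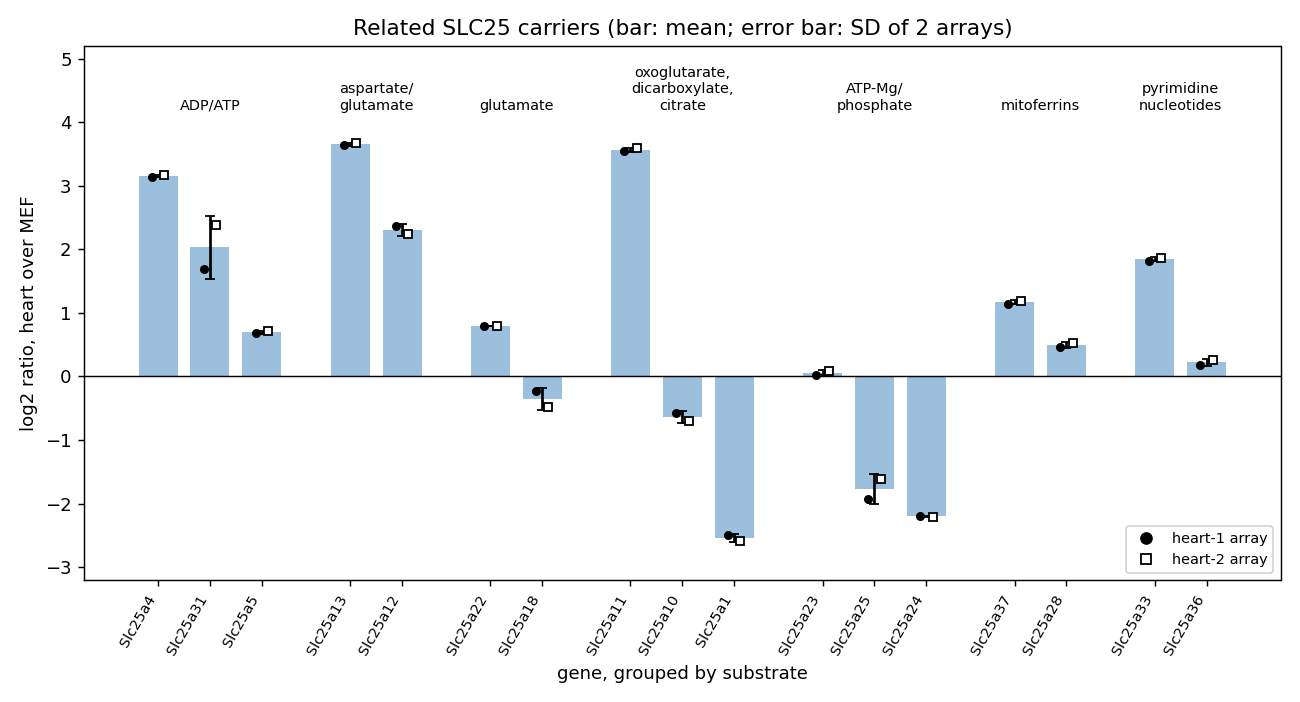
Log2 ratio of heart over MEF (bars, mean; error bars, SD of 2 arrays) with the heart-1 (filled circles) and heart-2 (open squares) values, for SLC25 genes grouped by substrate. Slc25a4 stands at 3.15 beside 0.70 for Slc25a5, and Slc25a11 at 3.57 beside -2.54 for Slc25a1.

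Family members that carry other symbols were not chosen by the rule. Ucp3, the uncoupling protein of muscle, was at 7.74 and 6.98, a mean of 7.36 ± 0.54 and 164-fold higher in heart, above every one of the 45 members. Ucp1, the thermogenic protein of brown fat, was at 2.21 and 1.25 (mean 1.73 ± 0.67; limma adjusted p = 0.0358). Of 7 adipocyte markers, Ucp1 among them, 6 were higher in heart; the list's medians were 2.21 and 2.12. Adipoq, an adipocyte hormone, was at 5.18 on heart-1 and 4.01 on heart-2, and Cidea, abundant in brown fat, at 6.38 ± 0.13. Their part in the Ucp1 ratio was not tested. Mtch2 and Mtch1, outer-membrane relatives, were at 0.78 ± 0.03 and -1.49 ± 0.00.

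Mitochondrial transporters of other families went both ways. Of 18 measured, 10 were higher, 7 were lower and 1 did not pass, beside 33.8% higher and 39.3% lower over all genes. Their median was 0.83. Vdac1, a channel of the outer membrane, was at 1.58 ± 0.05, and Abcb6, a porphyrin transporter, at 1.84 ± 0.01. Sfxn3 and Sfxn1, sideroflexins that carry serine, were lower at -2.30 ± 0.07 and -1.37 ± 0.03; the 3 probes of Sfxn1 ran from -2.65 to 0.32. The enzyme served by Slc25a3 and Slc25a4 was more uniform. All 15 measured ATP synthase genes, its inhibitor Atpif1 included, were higher, with a median of 2.80, led by Atp5g3 at 4.30 ± 0.04, Atp5k at 3.43 ± 0.05 and Atp5o at 3.29 ± 0.02.

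**Figure D3:**
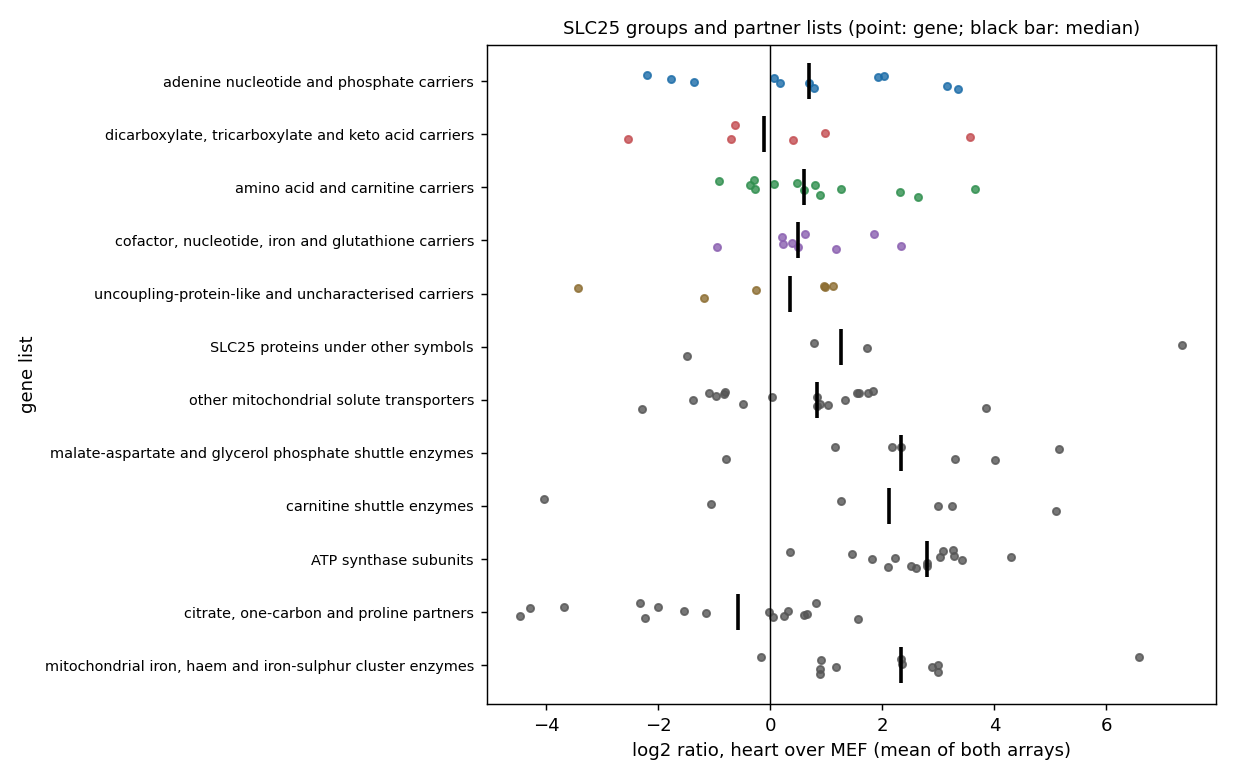
Mean log2 ratio of heart over MEF of each gene (points) in the 5 SLC25 groups and in lists of partner genes, with the median of each list (black bars). The ATP synthase genes all lie above 0, while the SLC25 groups and the citrate, one-carbon and proline list spread to both sides.

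The probes of a gene mostly shared a direction. There were 24 members with 1 probe, 12 with 2 and 9 with 3. Of the 21 with more than 1, the probes of 5 disagreed in the sign of their mean (23.8%, against 39.1% of all such genes on the array). These were Slc25a37, Slc25a36, Slc25a40, Slc25a14 and Slc25a21, so the averaged ratios of these genes do not hold for each of their probes. The range between a member's probes had a median of 0.92 on the log2 scale, against 0.95 over all genes with more than 1 probe. Fitted singly, all probes passed with 1 sign for 22 members that were higher and 8 that were lower. These counts include members with 1 probe, for which no disagreement is possible. Among the 5 genes above, both probes of Slc25a36 passed, with opposite signs. The others of the 5 each had a probe that did not pass, as did Slc25a30, Slc25a39, Slc25a42 and Slc25a51.

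**Figure D4:**
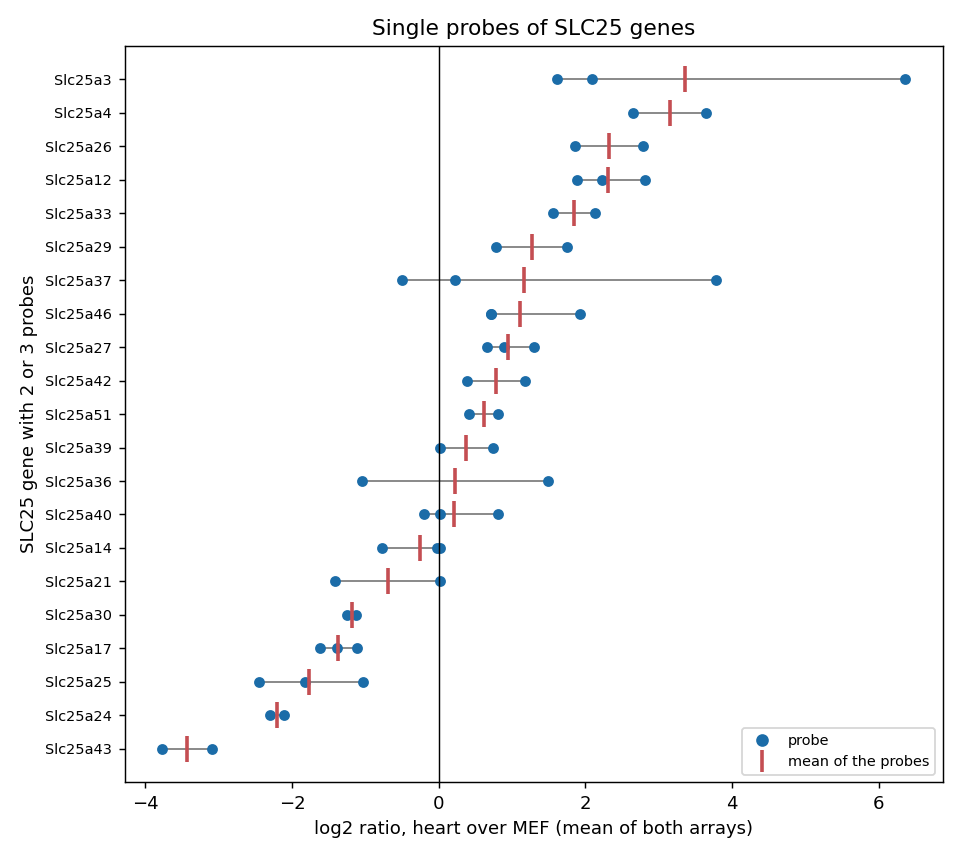
Mean log2 ratio of heart over MEF of each probe (points) and their average (red bars) for the 21 SLC25 genes with 2 or 3 probes. The 3 probes of Slc25a3 run from 1.61 to 6.36 and those of Slc25a37 from -0.50 to 3.78.

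The arrays gave similar ratios for the family. Across the 45 genes the Pearson correlation between heart-1 and heart-2 was 0.987 and the Spearman correlation 0.982, as a description across genes that share the MEF reference. Over all genes these were 0.982 and 0.959. The gap between arrays was over 0.5 for 4 members, Slc25a48, Slc25a31, Slc25a21 and Slc25a54. The median gap was 0.08 for the family and 0.09 over all genes.

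RefSeq promoter windows of the same length were matched for 35 of the 45 members, 44 windows in all, since some genes have several starts that can overlap. On either strand, 7 motifs were searched. The E-box CACGTG was found in 8 of the 44 windows (18.2%, against 7.15% of the 32851 windows of the table), in Slc25a1, Slc25a13, Slc25a14, Slc25a15, Slc25a31, Slc25a33 and Slc25a36; the windows of Slc25a14 overlap and share a match. Of the 7 genes with an E-box, 4 were higher in heart, 1 was lower and 2 did not pass. The ETS core CCGGAAG was in 7 windows (15.9%, against 8.86%). These were windows of Slc25a3, Slc25a4, Slc25a20, Slc25a38 and Slc25a54, called higher in heart, and of Slc25a17 and Slc25a25, called lower.

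NRF-1 (GCGCANGCG) was found in 2 windows (4.55%, against 6.25%), the cyclic AMP element TGACGTCA in 2 (4.55%, against 1.79%) and the sterol element TCACNCCAC in 1 (2.27%, against 1.24%). The oestrogen-related receptor motif TNAAGGTCA and the amino acid response motif TGATGNAAT were found in 0 of 44, against 1.28% and 0.96% of all windows. These counts describe letters in short windows only. The median GC content was 59.3% for members and 52.7% for the whole table.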

How the data were processed

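Two-colour Agilent arrays of mouse heart RNA (Cy3) against MEF RNA (Cy5) were read with Agilent Feature Extraction, per the submitters' processing notes. Version, background treatment, normalization and filters: not given in the sources used here. Deposited values, 1 per probe and array for 41174 probes, are log ratios read as log2. The base was inferred from their range, since the largest absolute value was 11.62. Of the probes 32664 had 1 gene symbol in the platform annotation, 45 had several and 8465 had none here. Probes were averaged per gene and array, giving 19532 genes.

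The mean ratio was tested against 0 over all genes by an intercept-only lmFit with eBayes (limma 3.58.1, R 4.3.3), and p was adjusted by Benjamini-Hochberg with a threshold of 0.05. With 1 residual degree of freedom from 2 arrays, the test leans on variance shared across genes (prior SD 0.0655, 1.25 prior degrees of freedom). Any spread of MEF enters only through the ratios and cannot be estimated apart from that of heart. The fit was also run on simulated data drawn with its own variance prior, which cannot check whether that prior suits these data. Tables were joined in Python 3.11.15. SLC25 members and all lists were chosen with earlier results of these data known, so no list was tested. All members could be named; of the partner lists, up to 3 genes with the largest ratios, up to 2 against the majority and a set of key genes were named, and all SLC25 proteins under other symbols. Slc25a52, Slc25a53 and Ucp2, among others, were not analysed here. Promoters are RefSeq's, GRCm38.p6. Alternatives covered probe summary, centring, scaling, near-constant probes, variance prior, a 2-fold null hypothesis, single probes and leaving out an array.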

Additional observations from a re-analysis of the deposited data

How the results depend on the processing

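Signs of the 45 members were kept when probes were summarised by their median and when arrays were centred on their medians. Among alternatives that kept the variance sharing and the null hypothesis of 0, 22 to 28 members were called higher and 8 to 11 lower. Without variance shared across genes 10 were called higher and 4 lower, and treat against a 2-fold change called 9 higher and 5 lower. Both are stricter by construction (1 degree of freedom, or a wider null hypothesis). Over all genes these settings called 2921 higher and 3210 lower, and 2947 higher and 2850 lower. The calls of 21 higher and 8 lower members held in all 6 other alternatives of the gene-wise fit, of which setting the zero on the near-constant values (23 higher, 10 lower) was chosen after seeing the data. Slc25a37 and Slc25a40 lost their calls with the probe median (0.22 and 0.03), and Slc25a36, Slc25a40 and Slc25a45 with centred arrays. Slc25a48 and Slc25a21 were called lower with centred arrays. With the zero on the near-constant values, Slc25a34, Slc25a36, Slc25a39, Slc25a40, Slc25a44 and Slc25a45 lost their calls and Slc25a21 and Slc25a48 were called lower. In this setting and with centred arrays, the adjusted p of the members followed the size of their mean ratio, whatever the gap between arrays. Calls gained or lost there therefore amount to a cut on size. Slc25a14 and Slc25a15 were called lower after quantile normalization, and Slc25a14 and Slc25a21 without the near-constant probes. The cause was not tested. The family's median was 0.53 with centred arrays, and from 0.50 to 0.53 with either array left out. Counts at least 2-fold were then 14 to 15 higher and 5 to 7 lower; a single array gives no test. No paired analysis was possible because there is 1 group of arrays. Signal over background could not be judged.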
